A study of Equus caballus with 28 samples.

Results

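The miR-34 and miR-449 family was followed across the uterus and conceptus of the mare at day 13 after ovulation. Members were taken by name, as every known horse miRNA called miR-34a, miR-34b, miR-34c or miR-449 with any letter and any arm suffix. The rule found 6 members among 690 known miRNAs, namely eca-miR-34a, eca-miR-34b-3p, eca-miR-34b-5p, eca-miR-34c, eca-miR-449a and eca-miR-449b. Another 154 predicted miRNAs were counted in the same libraries, which gives 844 miRNAs in all. The name rule was applied to known miRNAs alone, so a relative among the predicted ones is not excluded. The paper considers the number of predicted miRNAs likely too high, because duplicates had nearly the same counts. The 844 entries may thus hold fewer distinct miRNAs. Every member had reads in at least 20 of the 28 libraries.

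Samples came from reproductively sound Warmblood mares, whose ovulation was induced with hCG in every cycle. Each mare had a pregnant cycle, with insemination by the same stallion, and a cyclic cycle in which it stayed unbred, in random order, so that pregnant and cyclic samples are paired by mare. The 28 libraries were endometrial biopsies (B) of 5 pregnant and 4 cyclic mares, uterine fluid (UF) of the same 5 pregnant and 4 cyclic mares, 5 embryos (embryonic tissue without its capsule) and 5 yolk sac (YS) fluids. Cyclic samples of mare 5 were not analysed here. The UF was collected with a tampon, and both fluids were extracted with another RNA kit than both tissues, so fluid against tissue and kit against kit cannot be told apart. The replicate number in the sample labels was taken as the mare.

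Mature miRNAs guide silencing complexes to messenger RNAs, mainly through the short seed near their 5′ end, and miR-34 and miR-449 miRNAs have the same or a nearly identical seed. miR-34a is best known as a target of the tumour suppressor p53. The miRNAs miR-34b, miR-34c and miR-449 are abundant in epithelia with multiciliated cells such as airway and oviduct, where they take part in cilia formation. miR-34b-3p is the other arm of the miR-34b hairpin and has a seed of its own. The horse annotation of RefSeq (assembly TB-T2T, used for names and neighbours only) holds 5 hairpin genes of these members on 3 chromosomes. MIR34B and MIR34C lie together inside HOATZ, a gene of cilia and flagella, and MIR449A and MIR449B lie together inside CDC20B, beside MCIDAS, a regulator of multiciliated cell formation. MIR34A lies apart from both pairs, between H6PD and GPR157. No table used here holds the mature sequences, so none is printed.

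The members other than miR-34a were higher in UF than in endometrium in both pregnant and cyclic mares, by 2.13 to 4.31 and by 1.74 to 3.74 on the log2 scale, and miR-34a did not pass the test. The embryo held little of the family, with all 6 members called lower than in pregnant endometrium and pregnant UF. Of these, miR-34b-5p and miR-449b rest on 2 embryo reads each, and miR-34b-3p on at most 3 reads per embryo. With library totals miR-449b was not called against endometrium. The YS fluid also lay below pregnant UF for all 6 members, of which miR-34a was not called when libraries were scaled by their totals alone. In YS fluid miR-34b-5p and miR-449b rest on 1 read each. Between pregnant and cyclic mares no member was called in either compartment. Levels below are in CPM, the reads of a miRNA per 1000000 reads on all known and predicted miRNAs of the library, as mean ± SD with n. A miRNA was called when edgeR's quasi-likelihood test gave it a false discovery rate (FDR, Benjamini-Hochberg over all miRNAs tested) of 0.05 or less and the change was at least 2-fold.

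The libraries differed in depth. Total miRNA reads ran from 61836 to 590593 in endometrium, from 62087 to 226308 in UF, from 28204 to 44768 in embryos and from 4352 to 14531 in YS fluid. A floor of 3 reads was worth 5.08 to 48.5 CPM in endometrium, 13.3 to 48.3 CPM in UF, 67.0 to 106 CPM in embryos and 206 to 689 CPM in YS fluid. Floors and counting intervals cover counting error only, because amplified copies of a molecule are not independent. No 2 libraries held identical values.

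The family as a whole took 1.20% ± 0.703 (SD, n = 4) of the miRNA reads in cyclic endometrium and 1.01% ± 0.513 (n = 5) in pregnant endometrium. In UF it took 5.67% ± 1.52 (n = 4) of the reads in cyclic mares and 6.20% ± 0.929 (n = 5) in pregnant mares. In embryos the share was 0.110% ± 0.0372 (n = 5) and in YS fluid 0.380% ± 0.309 (n = 5). The lowest UF library, at 4.53%, lay above the highest endometrial library, at 2.00%, and the highest embryo, at 0.167%, lay below the lowest endometrial library, at 0.291%. In bulk samples fewer cells of a type and less RNA per cell cannot be told apart.

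A pair of members carried most of these reads. eca-miR-449a supplied 58.9% of the family reads in cyclic endometrium, 56.1% in pregnant endometrium, 54.8% in cyclic UF and 47.9% in pregnant UF, with the reads of a group pooled. eca-miR-34c supplied 29.6%, 33.6%, 33.1% and 40.7% in the same order. By mean CPM, miR-449a stood at place 27 of 844 miRNAs in both endometria, at place 8 in cyclic UF and at place 7 in pregnant UF. miR-34c stood at places 35 and 34 in cyclic and pregnant endometrium and at places 13 and 8 in cyclic and pregnant UF. In the conceptus miR-34a gave 21.5% of the 200 pooled family reads of embryos, with a range of 9.09% to 48.6% between embryos, and 17.8% of the 152 pooled family reads of YS fluid, with a range of 0% to 33.3%. Its pooled share was 5.64% in pregnant endometrium and 1.24% in pregnant UF.

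**Figure D1:**
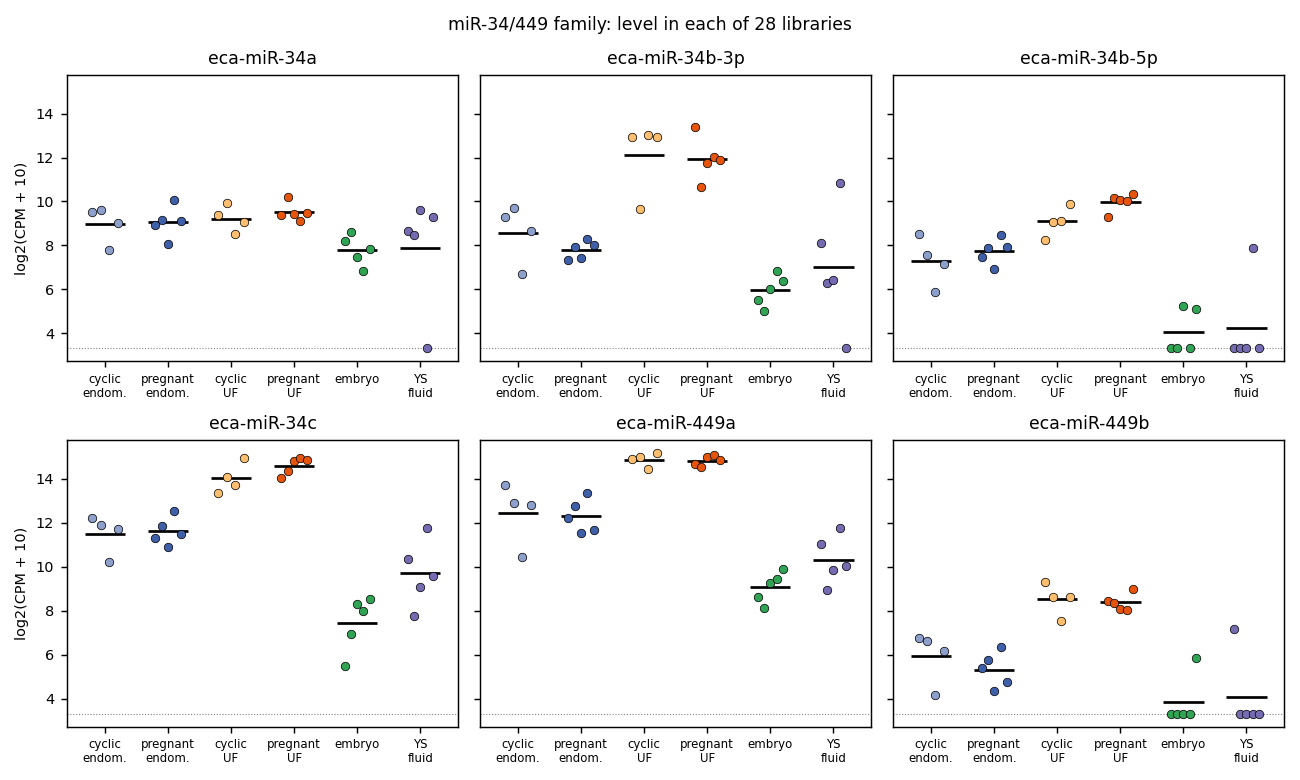
Level of each family member in the 28 libraries, as log2(CPM + 10), by group (endom., endometrium; UF, uterine fluid; YS, yolk sac). Points are libraries, black lines are means of the log values and the dotted line marks 0 reads; miR-34b-3p, miR-34b-5p, miR-34c, miR-449a and miR-449b have their highest mean in a UF group, and the points of miR-34a in endometrium and UF share one range.

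miR-449a, a member of the pair of hairpins beside MCIDAS, was the most abundant of the family in endometrium and UF. Its levels in cyclic endometrium were 13439, 7617, 1380.4 and 7145 CPM in mares 1 to 4. In pregnant endometrium they were 4735, 6959, 2929, 10515 and 3250.2 CPM in mares 1 to 5. Mare 4 was highest in the pregnant group, and mare 3 was lowest in both groups.

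In cyclic UF miR-449a reached 30395, 32309.9, 22227 and 37269 CPM in mares 1 to 4. In pregnant UF it reached 26422, 24202, 32736, 34693 and 29606 CPM in mares 1 to 5. All 9 UF libraries lay above all 9 endometrial libraries, and UF was higher than endometrium in 5 of 5 pregnant and 4 of 4 cyclic mares. The log2 fold change of UF over endometrium was 2.30 (SE 0.31, FDR = 9.63e-05, edgeR's quasi-likelihood test) in pregnant and 2.03 (SE 0.43, FDR = 0.00207) in cyclic mares.

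miR-34c, which shares its cluster with miR-34b, followed the same order of compartments. Cyclic endometrium held 4755, 3839.9, 1168 and 3380.2 CPM of miR-34c in mares 1 to 4. Pregnant endometrium held 2529, 3696, 1893, 5999 and 2875 CPM in mares 1 to 5. As for miR-449a, mare 3 gave the lowest value of each group and mare 4 the highest value of the pregnant group.

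In cyclic UF miR-34c stood at 10358, 17291, 13642 and 32082 CPM in mares 1 to 4. In pregnant UF it stood at 17011, 20838, 28706, 31584 and 30036 CPM in mares 1 to 5. UF and endometrium did not overlap in either cycle. The log2 fold change was 2.82 (SE 0.29, FDR = 2.94e-05, edgeR's quasi-likelihood test) in pregnant and 2.43 (SE 0.42, FDR = 0.000463) in cyclic mares, and within a mare UF was 5.27 to 15.2 times endometrium in the pregnant and 2.18 to 11.7 times in the cyclic cycle.

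miR-34b-5p, the arm of the miR-34b hairpin with the family seed, was much less abundant than miR-34c. It was present at 356, 179, 48.4 and 133 CPM in cyclic endometrium of mares 1 to 4 and at 169, 228, 112, 349.9 and 233 CPM in pregnant endometrium of mares 1 to 5. In UF it was present at 298, 535, 548 and 939 CPM in the cyclic cycle and at 609, 1129.8, 1053, 1024 and 1301 CPM in the pregnant cycle. The pregnant UF and pregnant endometrial libraries did not overlap, while the cyclic ones did, because mare 1 had more miR-34b-5p in cyclic endometrium than in cyclic UF. The change was called in pregnant mares (log2 fold change 2.13, SE 0.31, FDR = 0.000165, edgeR's quasi-likelihood test) and in cyclic mares (1.74, SE 0.58, FDR = 0.0304). Without cyclic endometrium of mare 3 the cyclic change was 1.56 with an FDR of 0.0696 and was no longer called.

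miR-34b-3p, the arm with another seed, had the largest difference between UF and endometrium of the family and the widest spread. Cyclic endometrium held 615, 817, 94.2 and 388 CPM in mares 1 to 4, and pregnant endometrium 154, 237, 164, 307 and 247 CPM in mares 1 to 5. Cyclic UF held 7724, 791, 8375 and 7870.5 CPM, and pregnant UF 10576, 1624, 3402, 4097 and 3777 CPM. Mare 2 gave the lowest UF value in both cycles, and in its cyclic cycle UF (791 CPM) did not exceed endometrium (817 CPM). The log2 fold change of UF over endometrium was 4.31 (SE 0.46, FDR = 2.94e-05, edgeR's quasi-likelihood test) in pregnant and 3.74 (SE 0.73, FDR = 0.00109) in cyclic mares.

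miR-449b, the partner of miR-449a in its cluster, was the least abundant member in endometrium. It was found at 97.0, 89.7, 8.07 and 61.1 CPM in cyclic and at 31.98, 44.4, 10.2, 71.4 and 17.4 CPM in pregnant endometrium, where the 5 pregnant libraries together held 57 reads. UF held 614, 384, 177 and 385 CPM in cyclic and 334, 318, 262, 253 and 505 CPM in pregnant mares, above every endometrial library. The log2 fold change was 3.16 (SE 0.45, FDR = 0.000162, edgeR's quasi-likelihood test) in pregnant and 2.59 (SE 0.65, FDR = 0.00626) in cyclic mares. Reads of close relatives such as miR-449a and miR-449b could be divided between them by the counting, whose treatment of reads with several matches is not given in the sources used here.

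miR-34a, encoded apart from the other members, was at a like level in endometrium and UF. It measured 728, 764, 209.9 and 506 CPM in cyclic and 483, 559, 256, 1078 and 545 CPM in pregnant endometrium. In UF it measured 654, 954, 354.3 and 523 CPM in cyclic and 668, 1163, 674, 542 and 707 CPM in pregnant mares. The 4 groups overlapped, and the log2 fold change of UF over endometrium was 0.29 (SE 0.34, FDR = 0.521, edgeR's quasi-likelihood test) in pregnant and 0.062 (SE 0.46, FDR = 0.933) in cyclic mares.

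**Figure D2:**
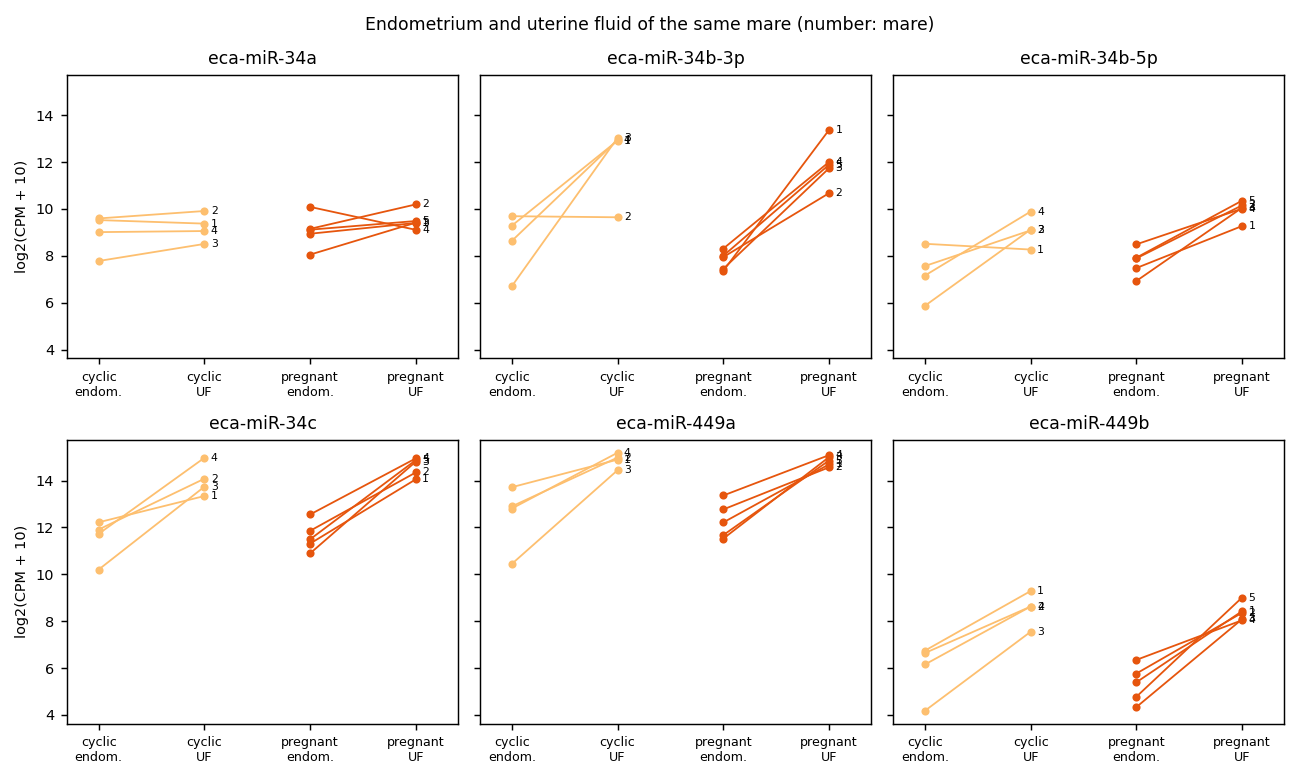
Endometrium and uterine fluid of the same mare, as log2(CPM + 10), with cyclic cycles on the left and pregnant cycles on the right of each panel; a line joins the samples of a mare and the number names it. In the pregnant cycle every line rises for all members other than miR-34a, for which 4 of 5 rise; in the cyclic cycle every line rises for miR-34c, miR-449a and miR-449b.

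Among all miRNAs tested, 13.6% were called higher in UF than in endometrium in pregnant mares and 11.9% in cyclic mares, against 5 of 6 family members in each. The median log2 fold change of the 6 members was 2.56 in pregnant and 2.23 in cyclic mares, and that of all miRNAs tested was -0.12 and -0.24. With the mare as replicate block each member kept its call in both cycles. With each library left out in turn, the 5 members called in pregnant mares were called in 10 of 10 fits, with log2 fold changes from 1.89 for miR-34b-5p to 4.52 for miR-34b-3p.

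Lists of miRNAs known from other cells were set beside these values. Of the epithelial list (the miR-200 family and miR-205, 6 members), 1 was called higher in UF than in endometrium in pregnant and 2 in cyclic mares, and its summed level overlapped between endometrium (49244 to 72098 CPM) and UF (50509.8 to 97730 CPM). Its most abundant member in the uterus, miR-200c, had a mean of 22538 CPM in pregnant endometrium and 25111 CPM in pregnant UF. Family reads came to a median of 15.3% of the epithelial list reads in pregnant endometrium and 93.3% in pregnant UF, with 19.4% and 69.9% in cyclic mares. Of all miRNAs tested, 20.1% were called lower in UF than in endometrium in pregnant and 18.9% in cyclic mares. The stromal and smooth muscle list (miR-143, miR-145, miR-199 and miR-214 arms) was called lower in UF for 6 of 7 members in pregnant and 7 of 7 in cyclic mares. Its summed level was 17516 to 56910 CPM in endometrium against 364 to 8071 CPM in UF.

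The endothelial list, both arms of miR-126, was called lower in UF for 2 of 2 members in either cycle, at 7.42 to 316 CPM in UF against 1598 to 4816 CPM in endometrium. The red blood cell list (miR-451, miR-144 and miR-486 arms) was called lower for 3 of 4 members in pregnant and 3 of 3 tested in cyclic mares, at 519 to 3246 CPM in UF against 2674 to 13506 CPM in endometrium. The leukocyte list had 1 of 5 members called lower in pregnant and 0 of 5 in cyclic mares (edgeR's quasi-likelihood test). These counts did not exceed the shares of all miRNAs tested, 20.1% and 18.9%. UF thus also differed from endometrium in the miRNAs of stroma, vessels and red blood cells. The part of this in the values of the miR-34 and miR-449 family was not tested. The early conceptus list (miR-302, miR-367, miR-371 and miR-372 arms) summed to at most 32.2 CPM in every endometrial and UF library. Of miRNAs linked to p53 outside the family (miR-192, miR-194, miR-215 and miR-107), 0 were called between UF and endometrium in either cycle by edgeR's quasi-likelihood test, with 4 of 5 tested in pregnant and 5 of 5 in cyclic mares. The share of all miRNAs tested that was called in either direction was 33.7% in pregnant and 30.8% in cyclic mares.

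The name of ciliated epithelium under which this family is often placed was not checked against messenger RNAs of ciliated cells, because the tables used here hold miRNAs, and messenger RNA libraries of the same tissues were not analysed here. The summed epithelial list was abundant in every group, and its 93710.1 to 131812 CPM in the embryo came mainly from miR-200b, at a mean of 76976 CPM. By edgeR's quasi-likelihood test 1 of its 6 members was called higher and 3 lower in embryo than in pregnant endometrium, with a median log2 fold change of -1.34. Among all miRNAs tested 28.7% were called higher and 42.6% lower, with a median of -1.03. Against pregnant UF 0 of its members were called higher and 4 lower in embryo, with a median of -1.67. For all miRNAs tested the shares were 29.7% higher and 38.7% lower, with a median of -0.23. In the embryo family reads came to a median of 0.880% of the epithelial list reads, and in YS fluid to 2.76%.

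The ratios of members within a library do not depend on the scaling of libraries. miR-34c exceeded miR-34b-5p, from the same cluster, by 12.4 to 25.4 times in endometrium and by 18.4 to 34.7 times in UF. The ratio of miR-449a to miR-34c was 1.13 to 2.83 in endometrium and 0.986 to 2.93 in UF. miR-449a exceeded miR-449b by 84.9 to 288 times in endometrium and by 49.5 to 137 times in UF. With both cycles pooled, the ranges of endometrium and UF overlapped for each of these pairs, as they did in cyclic mares alone. In pregnant mares alone miR-34c to miR-34b-5p did not overlap, at 12.4 to 17.1 in endometrium and 18.4 to 30.8 in UF. Neither did miR-449a to miR-449b, at 147 to 288 in endometrium and 58.6 to 137 in UF. Within every mare, in both cycles, miR-34c to miR-34b-5p was higher and miR-449a to miR-449b lower in UF than in endometrium. These differences in ratio were not tested.

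The arms of the miR-34b hairpin had the widest range of ratios in UF, which overlapped with that in endometrium. The reads of the 3p arm were 0.914, 1.04, 1.47, 0.878 and 1.06 times those of the 5p arm in pregnant endometrium of mares 1 to 5. In cyclic endometrium of mares 1 to 4 the ratio was 1.73, 4.56, 1.94 and 2.92, above every pregnant library. In cyclic UF it was 25.9, 1.48, 15.3 and 8.38, and in pregnant UF 17.4, 1.44, 3.23, 4.00 and 2.90. Mare 2 had the lowest and mare 1 the highest ratio in UF in both cycles.

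**Figure D3:**
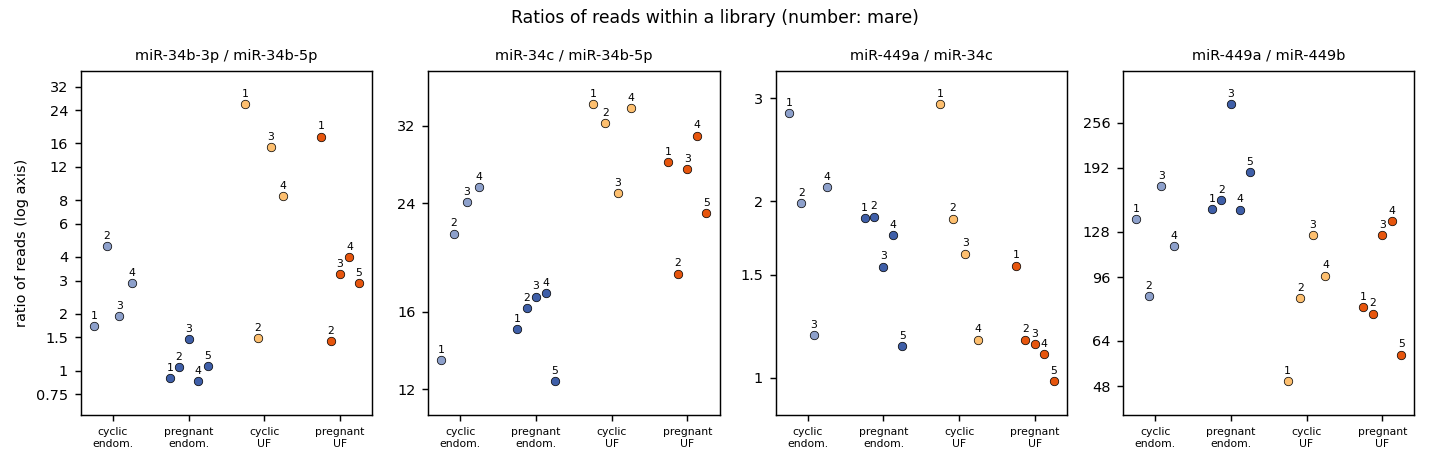
Ratio of the reads of 2 family members within a library, on a log axis, for the 4 endometrial and UF groups; the number beside a point is the mare. The ratio of the miR-34b arms runs from 0.878 to 4.56 in endometrium and from 1.44 to 25.9 in UF. With both cycles pooled, the ranges of endometrium and UF overlap in all 4 panels. In pregnant mares alone those of miR-34c to miR-34b-5p and of miR-449a to miR-449b do not overlap.

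Pregnancy was compared within mares, with the mare as a block, which uses the 4 mares that have both cycles. In endometrium 0 of 6 members were called by edgeR's quasi-likelihood test and 0 by DESeq2, and 0 had an unadjusted p under 0.05. Of all miRNAs tested 3.37% were called, and with known miRNAs only 2 of 267. The lowest FDR of a member was 0.312, that of miR-34b-5p (log2 fold change 0.73, SE 0.38). The others had log2 fold changes of 0.33 (SE 0.31) for miR-34a, -0.62 (SE 0.36) for miR-34b-3p, 0.38 (SE 0.24) for miR-34c, 0.25 (SE 0.23) for miR-449a and -0.31 (SE 0.56) for miR-449b. By CPM, miR-34b-3p was lower in the pregnant cycle in 3 of 4 mares and miR-34b-5p higher in 3 of 4, while miR-34a, miR-34c, miR-449a and miR-449b were higher in 2 and lower in 2.

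In UF 0 of 6 members were called by edgeR's quasi-likelihood test and 0 by DESeq2. Of all miRNAs tested 4.92% (15) were called, a count that ran from 2 without mare 3 to 26 without mare 1. With known miRNAs only it was 3 of 220. Among the members 1, miR-34b-5p, had an unadjusted p under 0.05, with a log2 fold change of 0.88 (SE 0.44, FDR = 0.355, edgeR's quasi-likelihood test). Its CPM was higher in the pregnant cycle in 4 of 4 mares, by 1.09 to 2.11 times. The log2 fold change of miR-34c was 0.60 (SE 0.31), with a higher CPM in 3 of 4 mares. miR-34a had a log2 fold change of 0.40 (SE 0.44) with a higher CPM in 4 of 4 mares. miR-34b-3p stood at -0.11 (SE 0.37), miR-449a at 0.044 (SE 0.30) and miR-449b at -0.23 (SE 0.49). Whether pregnancy acted differently in UF than in endometrium was tested as an interaction, which was called for 0 of 6 members by edgeR's quasi-likelihood test and 0 by DESeq2, with a lowest FDR of 0.987 and 0 unadjusted p under 0.05, against 1.69% of all miRNAs tested (7, with 20 called without mare 1 and 0 without mare 3).

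The embryo was compared with the pregnant endometrium and UF of the same 5 mares. miR-449a had the highest mean of the members in embryos, at 390.0, 268, 608, 693 and 942 CPM in embryos 1 to 5, although miR-34a exceeded it in embryo 2. miR-34c was read at 35.5, 112, 304, 242 and 362 CPM, which stood for 1, 5, 11, 7 and 15 reads. miR-34a was read at 284, 379.7, 166, 104 and 217 CPM and miR-34b-3p at 35.5, 22.3, 55.2, 104 and 72.5 CPM, the latter from 1, 1, 2, 3 and 3 reads, none above the floor of 3 reads. For miR-34c, miR-449a and miR-34b-3p every embryo lay below every pregnant endometrial library, while for miR-34a the embryo and endometrium overlapped.

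miR-34b-5p was seen with 2 reads in the 5 embryos, 1 in embryo 3 and 1 in embryo 5, and miR-449b with 2 reads, both in embryo 5. Pooled over the libraries, miR-34b-5p was 17.8 times higher in pregnant endometrium than in embryos (exact 95% counting interval 4.90 to 148) and 89.2 times higher in pregnant UF (24.6 to 738). For miR-449b the ratio was 2.78 (0.735 to 23.5) to pregnant endometrium and 29.0 (7.92 to 241) to pregnant UF. The mean level of miR-449b in pregnant endometrium, 35.1 CPM, was under the floor of every embryo. At the pooled endometrial level 5.56 reads would be expected in the 5 embryos, against the 2 seen. The counting interval takes in equal levels, so the pooled counts do not settle whether embryo and endometrium differ.

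All 6 members were called lower in embryo than in pregnant endometrium, as were 42.6% of all miRNAs tested. The log2 fold changes were -4.60 (SE 0.45) for miR-449a, -5.31 (SE 0.55) for miR-34c, -3.24 (SE 0.47) for miR-34b-3p and -2.59 (SE 0.48) for miR-34a, with a highest FDR among these of 0.000520 (edgeR's quasi-likelihood test). Those of miR-34b-5p (-5.45) and miR-449b (-2.82, FDR = 0.0164) rest on the 2 embryo reads each. Against pregnant UF all 6 were called lower as well, as were 38.7% of all miRNAs tested, with log2 fold changes of -7.23 (SE 0.36) for miR-449a, -8.43 (SE 0.54) for miR-34c, -7.82 (SE 0.65) for miR-34b-3p and -3.20 (SE 0.56) for miR-34a. Against UF the miR-34a change was the smallest of the 6, while against endometrium it and that of miR-449b changed places when embryo 1 or embryo 2 was left out.

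These sizes depend on how libraries are scaled. TMM was the normalization used, and with library totals alone the median log2 fold change of all miRNAs tested moved by 1.28 for embryo against endometrium and by 1.42 for embryo against UF, from -1.03 and -0.23. Calls for all miRNAs then went from 103 higher and 153 lower to 140 higher and 94 lower against endometrium, and from 92 higher and 120 lower to 146 higher and 85 lower against UF. RLE size factors gave 116 higher and 100 lower against UF. All but 1 of the members were still called lower than endometrium and all 6 lower than UF, and miR-449b was not called against endometrium (log2 fold change -1.60, FDR = 0.195, edgeR's quasi-likelihood test).

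YS fluid had the smallest libraries, and single reads carry much of its values. miR-449a was measured at 2109, 484, 918, 3447 and 1032 CPM and miR-34c at 1318, 208, 536, 3447 and 757 CPM in YS fluids 1 to 5, from 7 to 16 and from 3 to 15 reads. miR-34a was measured at 396, 346, 765, 0 and 619 CPM and miR-34b-3p at 264, 69.2, 76.5, 1838 and 0 CPM, the latter from 2, 1, 1, 8 and 0 reads, with 4 of 5 libraries at or under the floor. miR-34b-5p had 1 read, in YS fluid 4, and miR-449b had 1 read, in YS fluid 1.

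The YS fluid of mare 4 stood apart, with the highest miR-34c, miR-449a, miR-34b-3p and miR-34b-5p and no read of miR-34a. It was the smallest library, at 4352 reads. Its summed levels of the stromal (6893 CPM), red blood cell (1379 CPM) and leukocyte (919 CPM) lists were the highest of the YS fluids. In this library 1 read was worth 229.8 CPM and the floor was 689 CPM. The red blood cell and leukocyte sums thus rest on few reads. The part of these lists in the family values of this library was not tested. The early conceptus list summed to 34891 to 264130 CPM in YS fluid and to 12019.6 to 65295 CPM in embryos.

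Against pregnant UF all 6 members were called lower in YS fluid, as were 36.1% of all miRNAs tested. The log2 fold changes were -6.18 (SE 0.42) for miR-449a, -6.41 (SE 0.54) for miR-34c, -5.79 (SE 0.85) for miR-34b-3p and -2.41 (SE 0.55) for miR-34a, whose FDR of 0.00157 was the highest of the 6 (edgeR's quasi-likelihood test). With library totals alone the median of all miRNAs moved by 1.67, calls went from 65 higher and 100 lower to 114 higher and 52 lower (87 and 78 with RLE size factors), and miR-34a had a log2 fold change of -0.69 and was not called (FDR = 0.257). Pooled reads of miR-34b-5p were 53.7 times higher in UF (exact 95% counting interval 9.60 to 2124) and those of miR-449b 17.5 times higher (3.09 to 693).

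Against pregnant endometrium 5 of 6 members were called lower in YS fluid, as were 35.2% of all miRNAs tested. miR-449a (-3.87, SE 0.56), miR-34c (-3.54, SE 0.63) and miR-34a (-2.30, SE 0.50) had a highest FDR of 0.00108 (edgeR's quasi-likelihood test), and miR-34b-3p was not called (-1.48, SE 0.89, FDR = 0.173). Without the YS fluid of mare 4, miR-34b-3p was called at -3.40 (FDR = 0.00110), and miR-34c stood at -4.41, miR-449a at -4.40 and miR-34a at -2.11, all called. miR-34b-3p was also called with the replicate block, at -2.21 (FDR = 0.0112). miR-449b was called at -2.69 (FDR = 0.0477), but not with the replicate block (-2.53, FDR = 0.0838) or without the YS fluid of mare 4 (-2.54, FDR = 0.0734), and it kept the call in 4 of 16 alternatives. Its pooled ratio of endometrium to YS fluid was 1.67 with a counting interval of 0.288 to 67.2. For miR-34b-5p (-5.30) that ratio was 10.7 (1.91 to 425).

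The scaling mattered most in this comparison. With library totals alone the median of all miRNAs moved by 2.00, calls went from 61 higher and 120 lower to 119 higher and 59 lower, and 3 members were called. With library totals miR-34a stood at -0.31 (FDR = 0.627), miR-34b-3p turned to 0.47 (FDR = 0.647) and miR-449b stood at -0.82 (FDR = 0.616) by edgeR's quasi-likelihood test. miR-34b-5p, miR-34c and miR-449a stayed called. RLE size factors gave 78 higher and 87 lower among all miRNAs.

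Embryo and YS fluid come from the same conceptus. Of 4 members with enough reads, 0 were called between them by edgeR's quasi-likelihood test, 1 had an unadjusted p under 0.05, and 35.1% of all miRNAs tested (91) were called, or 49 to 62 with any of the YS fluids left out. miR-34c had the lowest FDR, 0.0791, with a log2 fold change of -1.79 (SE 0.76) for embryo against YS fluid and a lower CPM in the embryo in 5 of 5 conceptuses. It was called by DESeq2 (-2.01), with library totals (-2.48) and with known miRNAs only (-1.92). miR-449a was also lower by CPM in 5 of 5 embryos, with a log2 fold change of -0.72 (SE 0.58). With library totals the median of all miRNAs moved by -0.61 and calls went from 57 higher and 34 lower to 40 higher and 55 lower. The log2 fold change was -0.33 (SE 0.68) for miR-34a and -1.72 (SE 1.03) for miR-34b-3p.

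**Figure D4:**
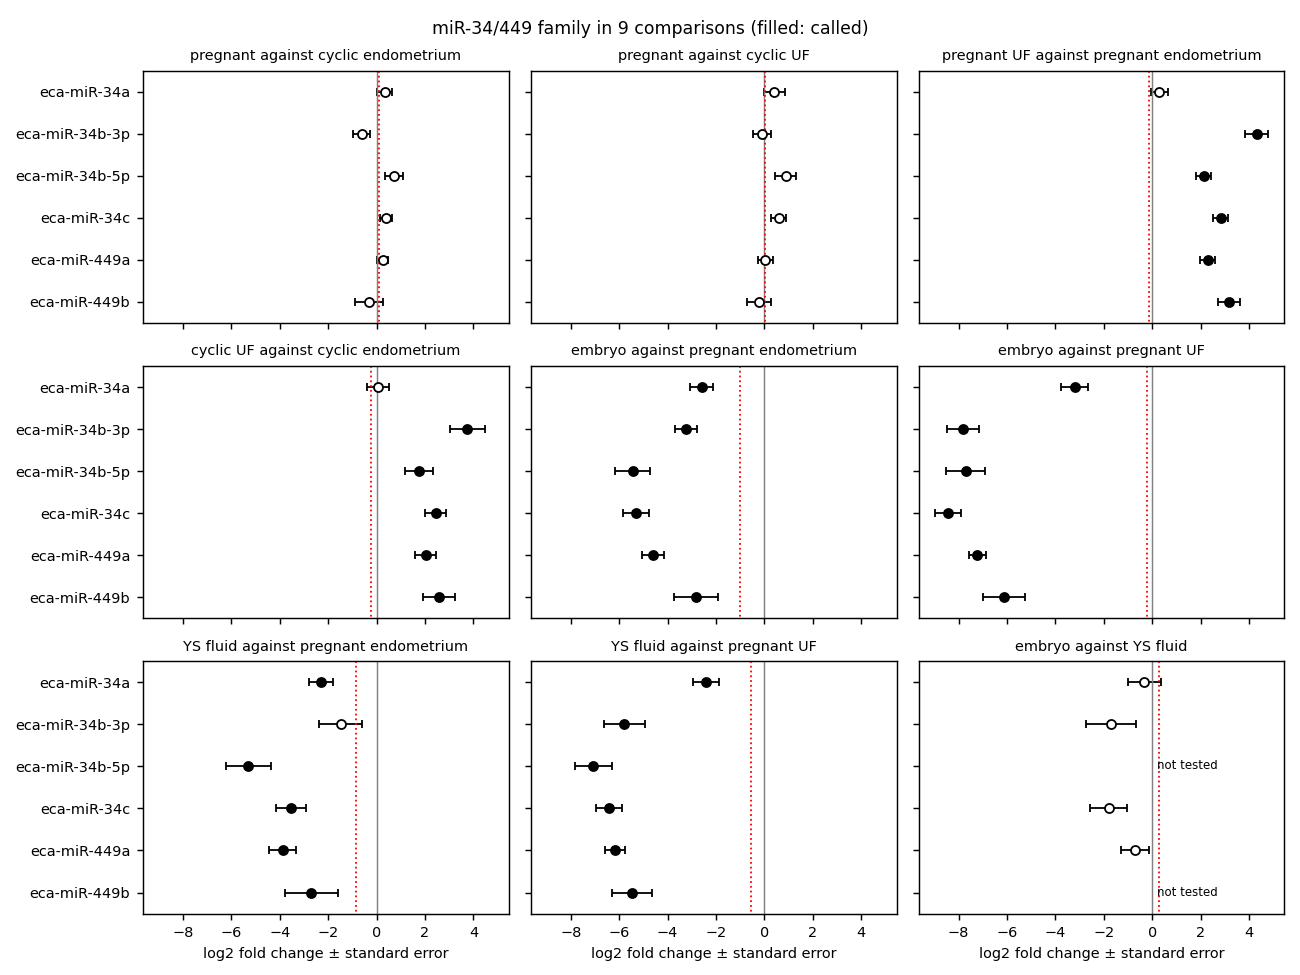
Log2 fold change of each member in 9 comparisons, with a standard error derived from the test statistic. Filled points were called and open points were not. The grey line marks no change and the dotted red line the median of all miRNAs tested. All members lie right of the grey line in both comparisons of UF with endometrium, where the points of miR-34a alone are open. All members lie left of the grey line for embryo and YS fluid against the uterine samples, and the points for pregnant against cyclic samples are open.

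The order of the groups was much the same for most members. Mean levels of miR-34c fell from pregnant UF (25635 ± 6355 CPM, n = 5) and cyclic UF (18343 ± 9587, n = 4) to pregnant endometrium (3398 ± 1593, n = 5) and cyclic endometrium (3286 ± 1523, n = 4), YS fluid (1253 ± 1291, n = 5) and embryo (211 ± 135, n = 5). Of these neighbours, the ranges of cyclic UF and pregnant endometrium alone did not overlap. For miR-449a the order was cyclic UF, pregnant UF, cyclic endometrium, pregnant endometrium, YS fluid and embryo, and pregnant UF and cyclic endometrium were the neighbours whose ranges did not overlap. For miR-34a, from 751 ± 239 CPM (n = 5) in pregnant UF to 230.1 ± 106.6 CPM (n = 5) in embryo, every pair of neighbours overlapped.

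Likeness of profile was measured as the root mean square difference of centred log2(CPM + 10) group means over the 6 groups. miR-34c and miR-449a, from different clusters, were 0.42 apart, and miR-34a was 1.32 to 1.83 from each of the other members. Among the known miRNAs outside the family with a mean of at least 100 CPM, miR-211 was closest to miR-449a, at 0.23, and to miR-449b, at 0.45. miR-23a was closest to miR-34c (0.61) and miR-34b-5p (0.46), miR-205 to miR-34b-3p (0.45) and miR-1839 to miR-34a (0.48). With 6 group means such a difference describes the profiles and carries no test.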

How the data were processed

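Small RNA libraries had been made from 100 ng total RNA with 18 PCR cycles. Per the study's methods, the authors trimmed reads with cutadapt 1.11 (named with its version in the submitters' processing notes), removed reads under 17 bases or quality 20, counted them with miRPro on miRBase release 22 and EquCab2.0, and deposited read counts per miRNA as raw, not normalized values. The precursor table repeated the predicted miRNAs in 154 of 154 entries and was not used. How reads matching several miRNAs were counted is not given in the sources used here.

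Known and predicted miRNAs were tested together. A comparison was fitted to the libraries of its groups alone in edgeR 4.0.16 (R 4.3.3), with at least 1 CPM in as many libraries as the smaller group, TMM, the quasi-likelihood test and Benjamini-Hochberg adjustment, with calls at an FDR of at most 0.05 and at least 2-fold change. An SE is the absolute log2 fold change divided by the square root of the F statistic of that test. The interaction used the mare within compartment as block. The mare, which the study used as its own control, blocked the pregnant against cyclic comparisons, where mare 5 enters only the filter and normalization. Deviations from group means correlated at a mean of 0.273 between same-mare endometria and 0.331 between same-mare UF. Between different mares the means were -0.0647 and -0.0818, and the lowest same-mare value was 0.0393. UF and endometrium of a mare showed no such likeness, at -0.0969 in pregnant and -0.0458 in cyclic mares, against 0.0183 and 0.0127 between different mares. Same-mare means were -0.192 for embryo with endometrium, 0.140 for embryo with UF, -0.0583 for YS fluid with endometrium and 0.0514 for YS fluid with UF. In the comparisons with a mare block, p-values measure the spread left after the block. In the others they measure the spread between the mares of a group. Counting intervals of pooled ratios are exact at 95%.

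Named were all members, the 3 known miRNAs nearest to each in profile (mean CPM of at least 100), of which the nearest is given, and the most abundant member of a list. Members and lists were chosen with earlier results of these data known. Alternatives were RLE size factors, library totals, no filter, filterByExpr with a minimum count of 10, DESeq2 1.42.0, known miRNAs only, the block left out or added, each replicate left out and, for profiles, other pseudocounts. The tests were tried on simulated data. Descriptive values and plots were made with numpy 2.4.6, scipy 1.17.1, pandas 2.3.3 and matplotlib 3.10.9 under Python 3.11.15.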

Additional observations from a re-analysis of the deposited data

Results flagged for a closer look

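Among 36 sets of 4 or 5 libraries (6 members in 6 groups), 7 had a library far from the others by Dixon's criterion, which chance alone meets in about 1 in 20 groups. In 3 of the 7 every other library had 0 reads, so that a single library with reads meets it by construction, and the number of sets is not set against that rate. In UF the libraries were miR-34b-3p in the cyclic cycle of mare 2, the lowest at 791 CPM, miR-34b-3p in the pregnant cycle of mare 1, the highest at 10576 CPM, and miR-34a in the pregnant cycle of mare 2, the highest at 1163 CPM. In YS fluid of mare 4, miR-34b-3p was highest at 1838 CPM (8 reads) and miR-34b-5p at 229.8 CPM (1 read). The other two were miR-449b at 132 CPM in YS fluid of mare 1 and at 48.3 CPM in the embryo of mare 5, from 1 and 2 reads. The 3 sets with reads in a single library are miR-34b-5p in YS fluid and miR-449b in YS fluid and embryo.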

How the results depend on the processing

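No called change of a member turned its direction under any alternative, and 12 of 807 fits of a member between 2 groups reversed a change that had not been called, while 21 changed a call. With library totals 3 members were called for YS fluid against pregnant endometrium, where miR-34b-3p turned to 0.47. For embryo against YS fluid 1 member was called with library totals, 1 by DESeq2 and 1 with known miRNAs only. The miR-449a difference between pregnant and cyclic endometrium was -0.14 without the replicate block, and that in UF was -0.043 with library totals and -0.018 with filterByExpr. With a replicate left out, pregnant against cyclic endometrium ran from -0.30 to 0.62 for miR-449a and from -0.015 to 0.46 for miR-34a, pregnant against cyclic UF from -0.58 to 0.32 for miR-34b-3p and from -0.11 to 0.11 for miR-449a, and cyclic UF against cyclic endometrium from -0.018 to 0.67 for miR-34a. The causes were not tested. The replicate block, where it was added, left each call as it was except for miR-34b-3p (-2.21, called) and miR-449b (-2.53, not called) in YS fluid against pregnant endometrium. In the difference of pregnancy effects, 27 of 72 fits changed sign and 0 were called. The counts of all miRNAs called for pregnant against cyclic samples also moved, from 13 to 0 in endometrium and from 15 to 0 in UF without the block, from 13 to 3 and from 15 to 0 with filterByExpr, from 13 to 2 and from 15 to 3 with known miRNAs only, and from 15 to 7 in UF by DESeq2. In UF 26, 7, 2 and 3 were called without mares 1, 2, 3 and 4. The 7 calls of the difference of pregnancy effects became 20 and 15 without mares 1 and 2, and 0 without mare 3, without the block or with known miRNAs only. For embryo against YS fluid 91 became 54 with the replicate block and 50, 62, 49, 62 and 53 without YS fluids 1 to 5. With filterByExpr, which tests fewer miRNAs, calls fell from 121 to 75 for pregnant UF against endometrium, from 256 to 140 and 212 to 101 for embryo against endometrium and UF, from 165 to 90 for YS fluid against UF and from 91 to 40 for embryo against YS fluid. For embryo against YS fluid miR-34b-5p and miR-449b had too few reads to be tested. With a pseudocount of 1 CPM in place of 10, between 0 (miR-34a) and 2 of the 3 miRNAs nearest in profile were shared per member. Depth limits miR-34b-5p and miR-449b in embryo and YS fluid, with 1 or 2 reads in all, and miR-34b-3p, with at most 3 reads in each embryo and in 4 of 5 YS fluids.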

Other observations

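In UF, miR-34b-3p ran beside miR-92b, a miRNA of the miR-25/92 seed family, which was chosen after its values were seen. miR-92b stood at 39892, 8665, 40008 and 28691 CPM in cyclic UF of mares 1 to 4 and at 49431, 13047, 14818, 16449 and 15978 CPM in pregnant UF of mares 1 to 5. The 4 UF libraries with the most miR-92b are the 4 with the most miR-34b-3p, and the UF of mare 2 was lowest for both miRNAs in each cycle. With 9 libraries from 5 mares this is a description without a test.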
